A study of Mus musculus with 6 samples.

Results

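The genes described here encode the subunits of the transcription factor NF-κB and the proteins that restrain it. They are the 10 rows of the deposited count table whose gene symbol was Rel, Rela, Relb, Nfkb1, Nfkb2, Nfkbia, Nfkbib, Nfkbie, Nfkbiz or Tnfaip3, out of 30587 rows in all. Each symbol had 1 row, and all 10 passed the filter on low counts that left 13249 rows for testing. RNA was sequenced from bone-marrow-derived dendritic cells (BMDCs) of C57BL/6 mice in 2 genotypes. KO cells carried floxed Hif2a alleles and a CD11c-Cre transgene (CD11c-Cre;Hif2afl/fl, 3 libraries), in which Cre is driven by the promoter of the gene for CD11c, active in dendritic cells and in some macrophages. WT cells carried the floxed alleles without Cre (Hif2afl/fl, 3 libraries), so Cre itself also differs between the genotypes. Every culture of both genotypes had 24 h of dimethyloxalylglycine (DMOG), which inhibits the hydroxylases that target HIF α subunits for degradation, and then 4 h of the glycolipid α-galactosylceramide (α-GalCer). No culture without these agents was analysed here. Mouse age, and whether libraries came from separate animals or cultures, are not in the labels, so each p-value rests on the variation among these 6 libraries alone, and that variation may be technical.

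NF-κB works as a dimer. In the canonical pathway, dimers of RelA (Rela) or c-Rel (Rel) with p50 (made from the product of Nfkb1) are held in the cytoplasm by IκB proteins. Signals from Toll-like, interleukin-1 and TNF receptors activate the IKK kinase, which marks IκB for degradation and frees the dimer. In the alternative pathway, receptors such as CD40 stabilise the kinase NIK, which leads to processing of p100 (the product of Nfkb2) to p52 in dimers with RelB (Relb). In dendritic cells both pathways are known to take part in maturation, and several NF-κB genes and inhibitors are themselves NF-κB targets, which forms a feedback loop.

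Such feedback acts through κB motifs in promoters, so the promoters of the members were searched for the κB motif on both strands in the 250 bases before each gene start. RefSeq promoter windows (GRCm38.p6, the build that mm10 denotes) matched 7 of the 10 symbols, and Relb, Nfkb1 and Nfkbiz had no entry. The motif was found in 5 of the 7, namely Rel, Nfkb2, Nfkbie, Nfkbia and Tnfaip3, and not in Rela or Nfkbib. Counted per gene in the same way, 545 of 9697 tested genes with a window (5.62%) held it, and counted per window, 3.9% of all 32851 windows of that length. The 4 sequences below are shown because the motif lies in them near the gene start. They are the 130 bases before the start on the strand of the gene, at chr11:23770971-23771100 (minus) for Rel, chr17:45555570-45555699 (plus) for Nfkbie, chr12:55492648-55492777 (minus) for Nfkbia and chr10:19015411-19015540 (minus) for Tnfaip3, with motif matches in capitals. The Tnfaip3 window lies outside the annotated exons but within the span of a longer annotated Tnfaip3 transcript.
Rel: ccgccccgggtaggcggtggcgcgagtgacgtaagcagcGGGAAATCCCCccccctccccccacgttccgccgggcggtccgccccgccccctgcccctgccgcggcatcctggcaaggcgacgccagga
Nfkbie: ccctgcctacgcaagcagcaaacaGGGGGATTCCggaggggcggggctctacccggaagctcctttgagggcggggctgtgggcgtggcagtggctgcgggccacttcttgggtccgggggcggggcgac
Nfkbia: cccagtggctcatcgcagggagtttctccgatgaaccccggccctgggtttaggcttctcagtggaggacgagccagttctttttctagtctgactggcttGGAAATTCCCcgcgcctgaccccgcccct
Tnfaip3: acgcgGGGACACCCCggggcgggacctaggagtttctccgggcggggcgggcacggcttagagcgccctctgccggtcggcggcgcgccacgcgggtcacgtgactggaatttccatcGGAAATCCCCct

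In Rel the capitals cover 3 overlapping matches on both strands. For Nfkb2, whose window lies in an annotated exon of another Nfkb2 transcript, the matches are given alone. They were GGGAATTCCC, which reads the same on both strands and starts 39 bases before the gene start, GGGGAATTCC on the other strand, overlapping it at 38 bases, and GGGGCTTTCC, starting 11 bases before the gene start. RefSeq gives Nfkb2 further starts, whose windows held a match 236 or 225 bases before them, and Tnfaip3 an additional start whose window held none. A gene was counted as holding the motif where any of its windows did. A match is a stretch of letters and was not tested for binding.

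Transcripts of the targeted gene were lower in KO, at 0.51-fold of WT, so reads of it remained. Epas1, the official symbol of Hif2a, had 175, 214 and 198 reads in KO libraries 1, 2 and 3, against 339, 352 and 349 reads in WT libraries 1, 2 and 3. The groups did not overlap (log2 fold change -0.98 ± 0.12 SE, edgeR adjusted p = 3.45e-05). Library totals ran from 16826800 to 17884160 counts in KO and from 14668641 to 17041448 in WT. WT 2 and KO 1 stood apart by low-level reads, with 4825 rows of a single read in WT 2 and 3610 in KO 1, against 1961 to 2316 in the other libraries. Markers of dendritic cells were present, Cd74 at 2113 to 2276 CPM in KO and 2641 to 2795 CPM in WT, and Itgax, the gene for CD11c, at 146 to 211 CPM in KO and 188 to 221 CPM in WT. Cd209a was near 0, at no more than 0.522 CPM in any library. Summed markers of B cells (6 genes) were at most 2.43 CPM in KO and 2.07 CPM in WT, and those of T and NK cells (5 genes in the table) at most 0.711 CPM in KO and 0.887 CPM in WT. CPM are normalised read counts, scaled by library size and TMM factor.

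All 5 subunit genes rose in KO, those of the canonical and those of the alternative pathway, by 1.19 to 1.46-fold. Of the 5 inhibitor genes, Nfkbib and Nfkbie rose and Nfkbia, Nfkbiz and Tnfaip3 did not pass the test. Together 7 of 10 members were called higher and 0 lower at an adjusted p under 0.05, while 13.8% of all tested rows were called higher and 12.0% lower, 25.8% in all. The 3 KO values were all above the 3 WT values in 8 of 10 members and all below them in 0, which held for 20.5% and 20.0% of all tested rows. The members were chosen with earlier results of these data known, so the counts describe them and are no test of the group. In bulk RNA, fewer cells of a type and less RNA per cell cannot be told apart.

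**Figure D1:**
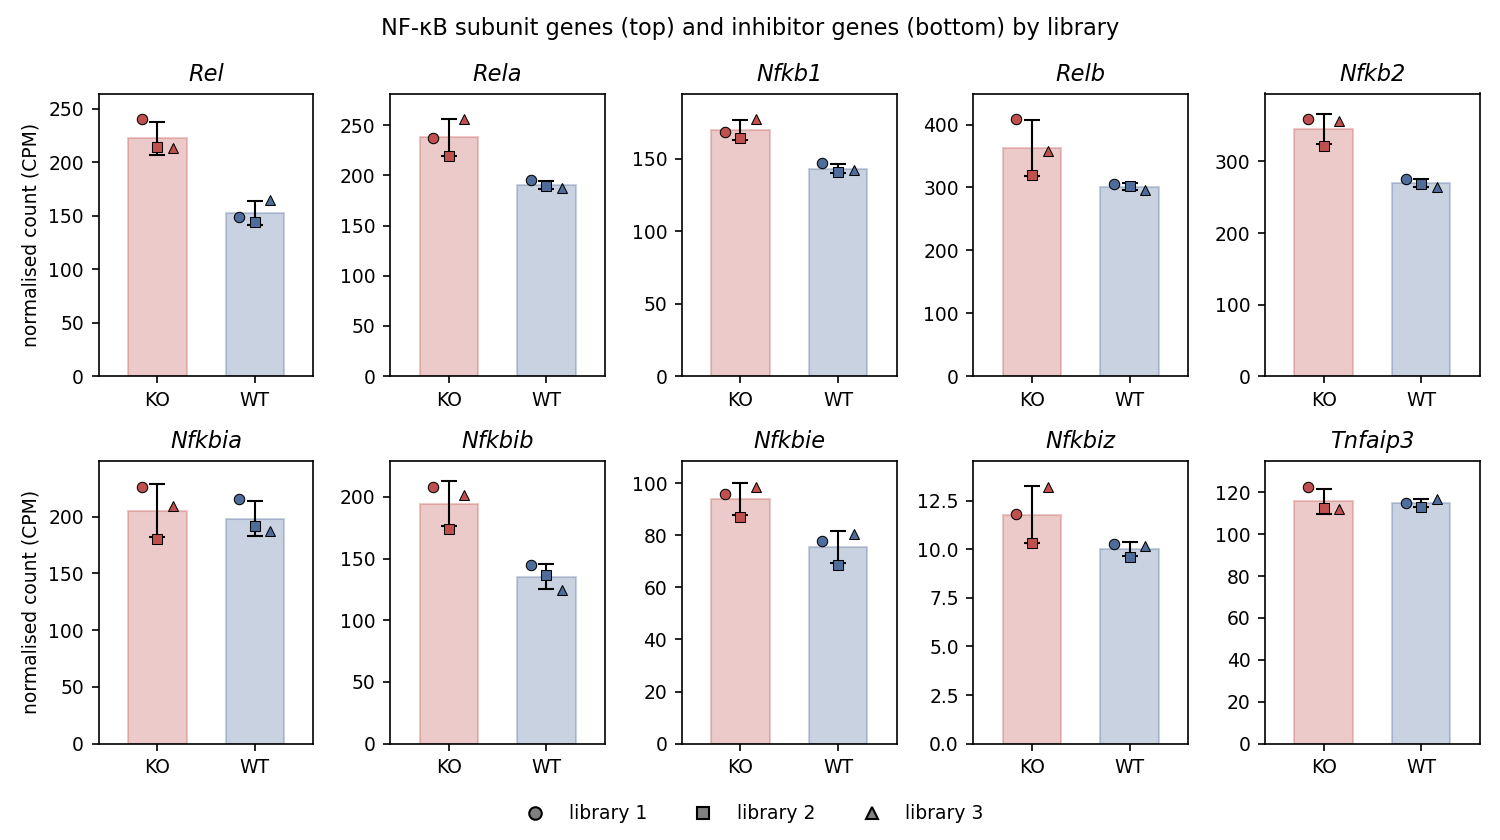
Normalised counts (CPM, linear axis from 0) of the 10 genes in each of 3 KO and 3 WT libraries. Bars are means, error bars are SD over 3 libraries and symbols mark the library number. KO libraries lie above WT libraries in every panel but those of Nfkbia and Tnfaip3.

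Rel, encoding c-Rel, an activating subunit changed most among the subunits. It had 240, 214 and 213 CPM in KO 1, 2 and 3, against 149, 144 and 165 CPM in WT 1, 2 and 3. All KO libraries were clear of all WT libraries, and the lowest of KO exceeded the highest of WT by more than the range within either genotype. The log2 fold change was 0.54 ± 0.07 (SE), or 1.46-fold (edgeR adjusted p = 0.000101), and 93.6% of tested rows had a lower one. Rel lies on chromosome 11, 23736847 to 23770970, minus strand.

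Rela, encoding the main transactivating subunit RelA (chromosome 19, 5637483 to 5648130, plus strand), had 238, 220 and 256 CPM in KO 1, 2 and 3, against 195, 189 and 187 CPM in WT 1, 2 and 3. The groups did not overlap, and the spread was wider in KO (SD 18.1 CPM in KO and 3.96 CPM in WT). Its log2 fold change was 0.32 ± 0.07, or 1.25-fold (edgeR adjusted p = 0.00371). Nfkb1, encoding the p105 precursor of p50 (chromosome 3, 135584655 to 135691547, minus strand), had 168, 164 and 177 CPM in KO 1, 2 and 3, against 147, 141 and 142 CPM in WT 1, 2 and 3. These groups did not overlap either. The rise was the smallest of the subunits, with a log2 fold change of 0.25 ± 0.06 (1.19-fold, edgeR adjusted p = 0.00776). Without KO 3 it did not pass (log2 fold change 0.21, edgeR adjusted p = 0.0514). Over all 15 alternatives its adjusted p spanned 0.0016 to 0.0514.

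In the alternative pathway, Nfkb2 (chromosome 19, 46304320 to 46312385, plus strand), encoding the p100 precursor of p52, had 359, 321 and 356 CPM in KO 1, 2 and 3, against 276, 268 and 265 CPM in WT 1, 2 and 3. KO 2 was the lowest of its genotype and still above every WT library. The log2 fold change was 0.36 ± 0.07, or 1.28-fold (edgeR adjusted p = 0.00144). Nfkb2 shares 299 exon bases, 6.52% of its exons, with Psd on the other strand. Psd also rose (log2 fold change 0.45, edgeR adjusted p = 0.00154), and since the strand setting of the counts is not given, reads of that stretch cannot be told apart. The same holds for 531 exon bases (11.6%) shared with the non-coding gene AC114539.1 on the other strand.

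Relb (chromosome 7, 19606217 to 19629438, minus strand), encoding the partner of p52, had 409, 320 and 358 CPM in KO 1, 2 and 3, against 306, 302 and 296 CPM in WT 1, 2 and 3. The groups did not overlap, but KO 2 stood only slightly above WT 1. Its log2 fold change was 0.27 ± 0.08, or 1.20-fold (edgeR adjusted p = 0.0294). This was the least stable of the 7 calls. It did not pass without KO 1 (log2 fold change 0.17), KO 3 (0.27), WT 1 (0.28), WT 2 (0.27) or WT 3 (0.26), nor without WT 2 and KO 1 (0.17), nor with offsets for GC content and exon length (0.19). Its adjusted p ran from 0.00155 to 0.108 over 15 alternatives.

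Among the inhibitors, Nfkbib, encoding IκBβ, rose most. It had 208, 174 and 201 CPM in KO 1, 2 and 3, against 145, 137 and 125 CPM in WT 1, 2 and 3, without overlap. In the fit the log2 fold change was 0.52 ± 0.08, or 1.44-fold (edgeR adjusted p = 0.00031). Nfkbib (chromosome 7, 28758251 to 28767512, minus strand) shares 314 exon bases with Ccer2 and 42 with Sirt2 on the other strand. Ccer2 had at most 4 reads in any library, and Sirt2 had a log2 fold change of -0.16 that did not pass (edgeR adjusted p = 0.0568).

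Nfkbie, encoding IκBε (chromosome 17, 45555703 to 45563169, plus strand), had 95.8, 86.9 and 98.6 CPM in KO 1, 2 and 3, against 77.7, 68.5 and 80.3 CPM in WT 1, 2 and 3. The lowest KO library was above the highest WT library. In the fit the log2 fold change was 0.31 ± 0.07, or 1.24-fold (edgeR adjusted p = 0.00555).

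Nfkbia, encoding IκBα, the inhibitor that NF-κB is known to induce within its own feedback loop, had 226, 180 and 210 CPM in KO 1, 2 and 3, against 216, 192 and 187 CPM in WT 1, 2 and 3. The groups overlapped, and KO held both the highest and the lowest library. The log2 fold change was 0.05 ± 0.09, with a 95% interval of -0.13 to 0.23 (edgeR adjusted p = 0.716). Nfkbia lies on chromosome 12, 55489410 to 55492647, minus strand.

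Tnfaip3, encoding A20, a ubiquitin-editing enzyme that limits signalling to IKK (chromosome 10, 19000910 to 19015657, minus strand), had 123, 113 and 112 CPM in KO 1, 2 and 3, against 115, 113 and 117 CPM in WT 1, 2 and 3. KO 1 was highest and the other libraries of both genotypes were close to each other. Fitted, the log2 fold change was 0.01 ± 0.06, with a 95% interval of -0.11 to 0.13 (edgeR adjusted p = 0.919). The upper end of that interval is below the log2 fold change of each of the 7 called members. It still lies inside the 95% intervals of Relb (0.09 to 0.44) and Nfkb1 (0.12 to 0.37).

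Nfkbiz, encoding IκBζ, a nuclear member of the IκB family that co-activates a subset of targets, was the least abundant, with 216, 174 and 228 reads in KO 1, 2 and 3, against 174, 148 and 149 reads in WT 1, 2 and 3. After scaling these were 11.8, 10.3 and 13.2 CPM in KO and 10.3, 9.58 and 10.2 CPM in WT. KO 2 lay only just above WT 1. The log2 fold change of 0.24 ± 0.12 was about as large as that of Nfkb1 but did not pass (95% interval -0.02 to 0.49, edgeR adjusted p = 0.173). Nfkbiz lies on chromosome 16, 55811375 to 55838899, minus strand.

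**Figure D2:**
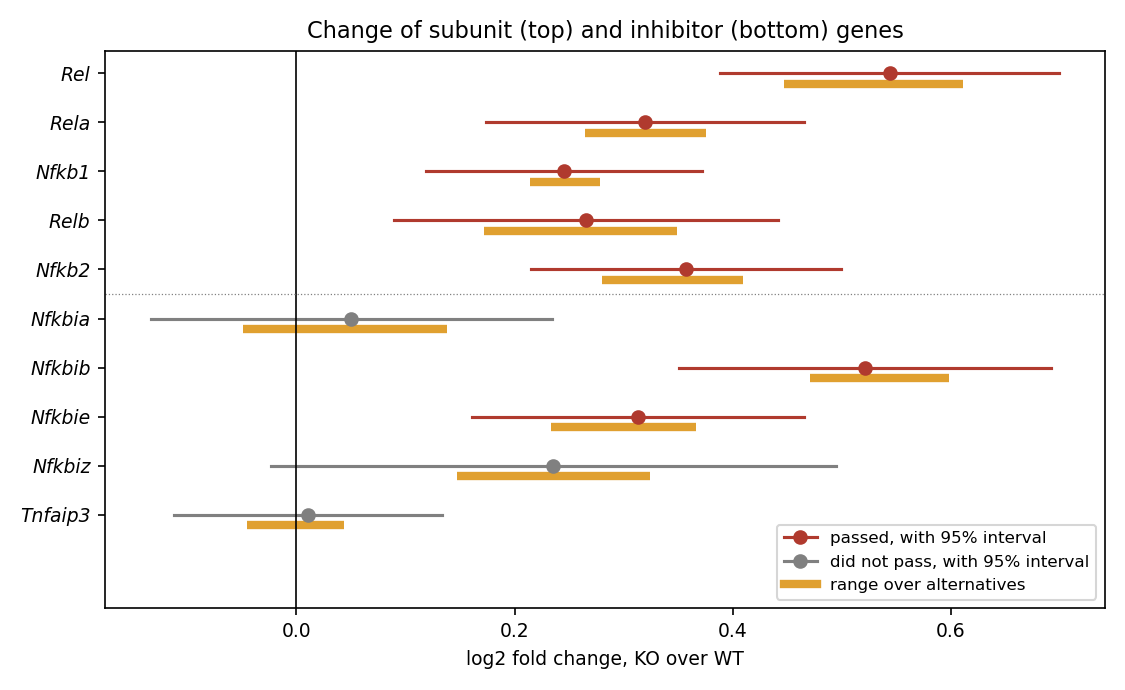
Log2 fold change of each gene, KO over WT, with subunits above the dotted line and inhibitors below it. Thin lines are 95% intervals from the edgeR fit of 3 libraries per genotype, and thick lines are the range over 15 alternative analyses. The intervals of Nfkbia, Nfkbiz and Tnfaip3 include 0.

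Among the 7 members with a window, the presence of the κB motif did not follow the calls. Rel, Nfkb2 and Nfkbie held it and rose, Nfkbia and Tnfaip3 held it with log2 fold changes of 0.05 and 0.01, and Rela and Nfkbib rose with no match in the window. Of 545 tested genes with the motif, 116 (21.3%) were called higher, against 1328 of 9152 genes (14.5%) whose windows lacked it. A second motif, an interferon-response type made of TTTC, any 2 bases and TTTC again, was searched on both strands of the same windows. Counted per gene, it was found in 0 of the 7 members and in 343 of 9697 tested genes with a window (3.54%). With so few members, 0 is near that share. Counted per window, 2.98% of all windows held it. Of 343 tested genes that held it 107 (31.2%) were called higher, against 1337 of 9354 (14.3%) without it. The share called higher was larger with either motif. Called lower were 59 (10.8%) of the genes with the κB motif and 33 (9.62%) of those with the second. Of all tested rows, 12.0% were called lower. These shares are descriptions without a test, and whether feedback took part was not tested.

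Canonical and alternative subunit transcripts were next summed within each library. Rel, Rela and Nfkb1 together made 646, 598 and 646 CPM in KO 1, 2 and 3, against 491, 474 and 494 CPM in WT 1, 2 and 3. Relb and Nfkb2 together made 768, 641 and 714 CPM in KO 1, 2 and 3, against 582, 569 and 561 CPM in WT 1, 2 and 3. Both sums were higher in every KO library, by 1.30-fold for the canonical and 1.24-fold for the alternative subunits. The ratio of alternative to canonical counts was 1.19, 1.07 and 1.10 in KO 1, 2 and 3, against 1.19, 1.20 and 1.13 in WT 1, 2 and 3. These ratios overlapped, with KO 1 inside the WT range. The 5 inhibitors summed to 0.470, 0.455 and 0.466 of the 5 subunits in KO 1, 2 and 3, against 0.525, 0.498 and 0.492 in WT 1, 2 and 3, so that this share was lower in every KO library. The inhibitor sum itself was not lower in KO, at 621 ± 52.1 CPM in KO and 534 ± 25.7 CPM in WT (SD). That was 1.16-fold, with overlap between the genotypes. No p-value is given for sums over members.

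**Figure D3:**
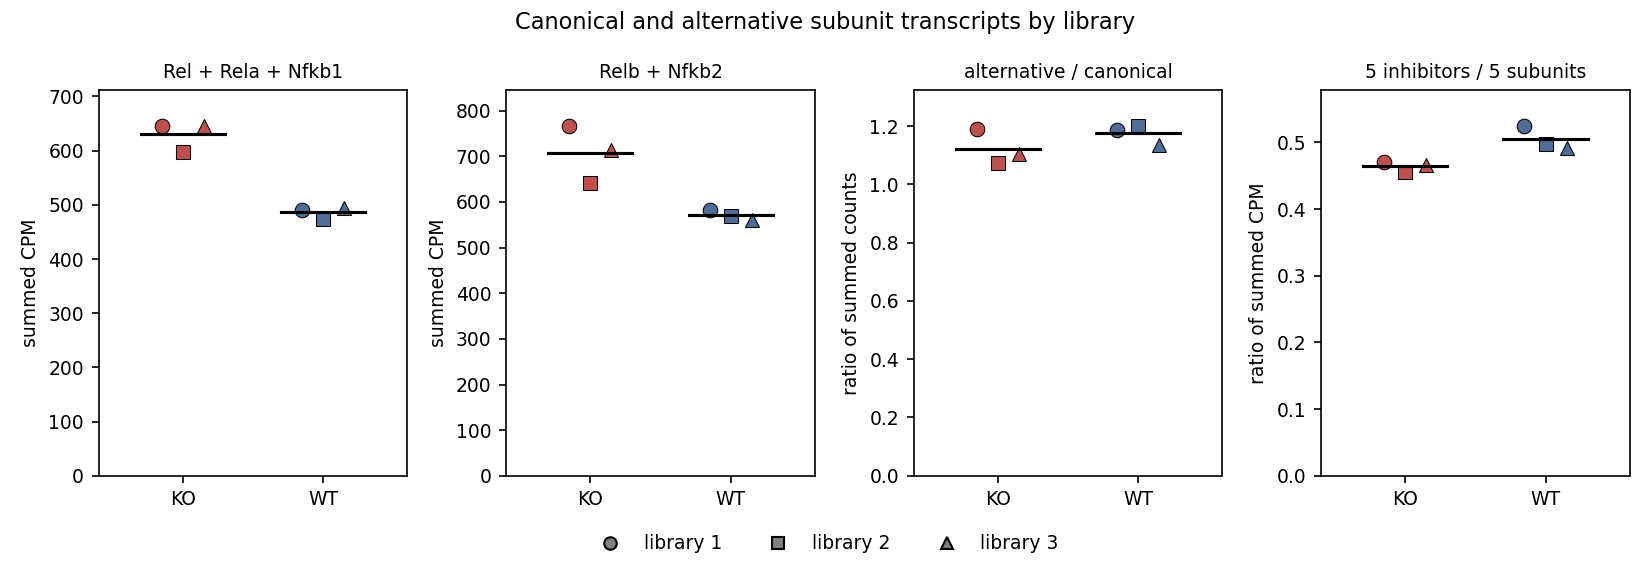
Summed CPM of the canonical and of the alternative subunit genes, their ratio in counts, and the ratio of summed inhibitor to summed subunit CPM in each of 3 KO and 3 WT libraries. Horizontal lines are means. Both sums lie higher in KO, the alternative to canonical ratio overlaps, and the inhibitor to subunit ratio lies lower in KO.

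Ratios between single genes need no scaling between libraries, and 5 such ratios were compared by a two-sided exact permutation test, which with 3 against 3 libraries allows no p under 0.1. The Rel to Relb ratio was 0.588, 0.669 and 0.596 in KO 1, 2 and 3, against 0.486, 0.477 and 0.557 in WT 1, 2 and 3. Every KO library was above every WT library, at 1.22-fold (exact permutation p = 0.1, adjusted p = 0.167). The Nfkb2 to Nfkb1 ratio was 2.13, 1.96 and 2.01 in KO 1, 2 and 3, against 1.88, 1.90 and 1.86 in WT 1, 2 and 3. It did not overlap either, at 1.08-fold (exact permutation p = 0.1, adjusted p = 0.167).

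The Nfkbie to Nfkbib ratio was 0.460, 0.501 and 0.490 in KO 1, 2 and 3, against 0.536, 0.501 and 0.645 in WT 1, 2 and 3, with KO 2 and WT 2 almost level (exact permutation p = 0.1, adjusted p = 0.167). The Rel to Rela ratio was 1.01, 0.974 and 0.833 in KO 1, 2 and 3, against 0.764, 0.761 and 0.880 in WT 1, 2 and 3, which overlapped through KO 3 and WT 3 (exact permutation p = 0.2, adjusted p = 0.25). The Relb to Rela ratio was 1.72, 1.46 and 1.40 in KO 1, 2 and 3, against 1.57, 1.59 and 1.58 in WT 1, 2 and 3 (exact permutation p = 0.5, adjusted p = 0.5). KO libraries lay on both sides of WT there. None of the 5 passed, and with 3 libraries per genotype none could.

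Levels of different genes were compared per length of annotated exons, as RPKM from the TMM-scaled library sizes. Nfkbia was highest in both genotypes, at 128 ± 14.6 RPKM in KO and 123 ± 9.56 RPKM in WT (SD, n = 3 each). In KO it was followed by Relb (93.2 ± 11.5), Nfkbib (89.6 ± 8.45), Rela (77.4 ± 5.90) and Nfkb2 (75.4 ± 4.64), whose neighbours overlapped in this order. In WT the same genes came in the same order, Relb at 77.5 ± 1.33, Nfkbib at 62.4 ± 4.74, Rela at 62.0 ± 1.29 and Nfkb2 at 58.8 ± 1.27 RPKM, and only Nfkbib and Rela overlapped. Nfkbie and Rel followed, at 30.8 ± 2.00 and 29.8 ± 2.06 RPKM in KO, where they overlapped, and at 24.8 ± 2.04 and 20.4 ± 1.45 RPKM in WT, where they did not. Tnfaip3, Nfkb1 and Nfkbiz were lowest, at 16.0, 14.1 and 2.35 RPKM in KO and 15.9, 11.9 and 2.00 RPKM in WT. With coding length in place of exon length, Rel moved above Nfkbie in both genotypes, from rank 7 to rank 5 in KO and to rank 6 in WT, since much of its exon length lies outside the coding part. Nfkb1 and Tnfaip3 also changed places with coding length in KO, to ranks 8 and 9, but not in WT, so the order of the genotypes was the same with exon length only.

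**Figure D4:**
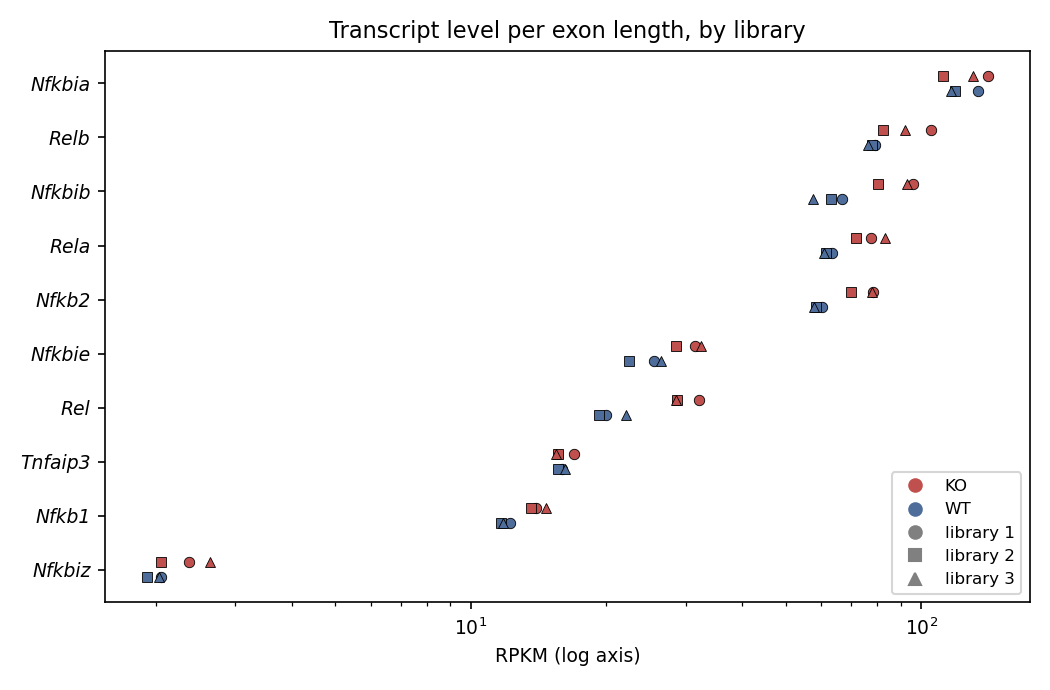
RPKM (log axis) of the 10 genes in each library, KO above WT within each gene, ordered by the mean in KO. Symbols mark the library number. The order of means is the same in both genotypes, from Nfkbia at the top to Nfkbiz at the bottom.

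Within a genotype, KO 2 was the lowest KO library for 8 of 10 members and KO 3 for 2, whereas KO 2 was lowest for 36.0% of all tested rows. KO 1 was highest for 6 members and KO 3 for 4, against 37% and 27.7% of all tested rows. In WT, WT 1 was highest for 7 members and WT 3 for 3, against 30.4% and 36.1% of all tested rows. WT 2 and WT 3 were lowest for 5 members each, against 32.2% and 36.7% of all tested rows. The median deviations of the members from their genotype mean on the log2 scale were 0.07, -0.11 and 0.05 in KO 1, 2 and 3, and 0.04, -0.02 and -0.02 in WT 1, 2 and 3. These counts have no test. Of the 3 tested rows outside the members whose log2 CPM followed Rel most closely over the 6 libraries, Ap3b1 had Pearson r = 0.9989, Gda 0.9961 and Dusp14 0.9957. These r are dominated by the difference between genotypes, were picked as the highest of all rows, and have no test.

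The genes around the members were grouped into 6 pathway lists, some of which share genes. Of their 79 distinct tested genes, 25 (31.6%) were called higher in KO and 3 (3.8%) lower, against 13.8% and 12.0% of all rows. These shares of all rows also apply to the counts of each list below. The median log2 fold change was 0.13, against -0.01 over all tested rows. Genes that are named beyond the 3 with the lowest p of each list were chosen after their values were seen.

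**Figure D5:**
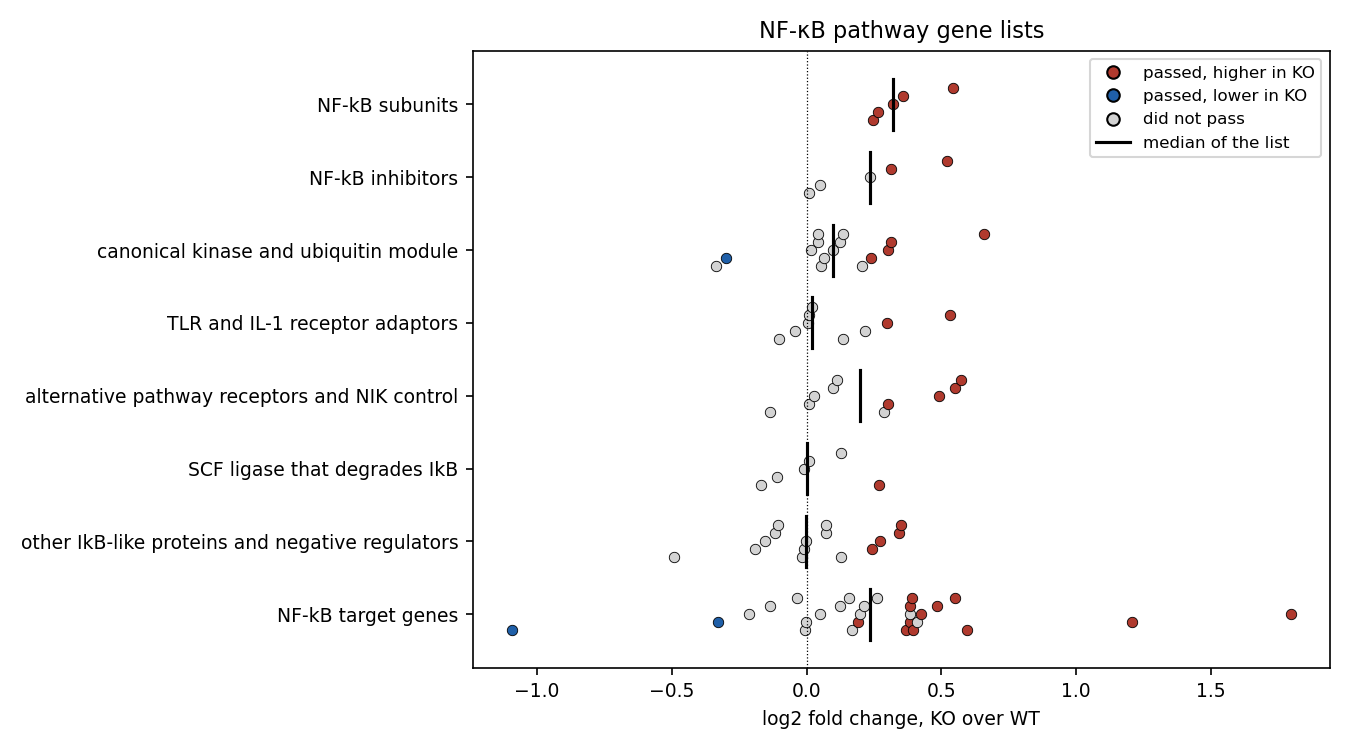
Log2 fold change, KO over WT, of the tested genes of 8 lists, the members' own subunit and inhibitor lists at the top. Each point is a gene, coloured by whether it passed the edgeR test, and vertical bars are list medians. The points of the target list reach furthest in both directions.

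In the canonical kinase and ubiquitin module, 4 of 15 genes rose and 1 fell, with a median log2 fold change of 0.10. Rnf31, encoding the catalytic subunit HOIP of the linear ubiquitin ligase complex, had 73.1 ± 5.88 CPM in KO and 46.3 ± 0.982 CPM in WT (SD, n = 3 each). That was 1.58-fold (log2 fold change 0.66, edgeR adjusted p = 1.21e-05). Rnf31 shares 123 exon bases with Irf9 on the same strand, which rose 2.33-fold. Ikbkb, encoding the IKKβ kinase, rose 1.24-fold (edgeR adjusted p = 0.00192), whereas Ikbkg, encoding the scaffold NEMO, was 1.23-fold lower (log2 -0.30, edgeR adjusted p = 0.00154). Ikbkg shares 418 exon bases with G6pdx on the other strand, which rose 1.16-fold. Chuk, encoding IKKα, which acts in both pathways, had 46.7 ± 3.67 CPM in KO and 43.6 ± 1.55 CPM in WT (edgeR adjusted p = 0.359).

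Of 9 adaptors of Toll-like and interleukin-1 receptors 2 rose and 0 fell, against 13.8% and 12.0% of all rows. The median log2 fold change was 0.02. Myd88, the common adaptor, had 86.8 ± 2.50 CPM in KO and 60.1 ± 3.93 CPM in WT (1.44-fold, edgeR adjusted p = 3.57e-05). The kinase gene Irak4 rose 1.23-fold (edgeR adjusted p = 0.00555). Both share exon bases with a gene on the other strand, Myd88 with Acaa1a and Irak4 with Twf1, and neither of these passed the test (log2 fold change -0.01 and 0.03).

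In the list of alternative pathway receptors and NIK control, 4 of 10 tested genes rose and 0 fell, with a median log2 fold change of 0.20. Map3k14, encoding NIK, had 196 ± 11.8 CPM in KO and 132 ± 11.2 CPM in WT (1.49-fold, edgeR adjusted p = 7.04e-05). The receptor genes Tnfrsf11a (RANK) and Cd40 rose 1.41-fold and 1.47-fold (edgeR adjusted p = 7.41e-05 and 0.000406), and the fourth gene was Traf2, which is also on the canonical list (1.23-fold, edgeR adjusted p = 0.00752). Traf2, Traf3 and Birc2 help to degrade NIK. Unlike Traf2, Traf3 and Birc2 did not pass, with log2 fold changes of 0.03 and 0.01 (edgeR adjusted p = 0.813 and 0.930). Without KO 1, or without WT 2 and KO 1, 1 gene of the list was called lower.

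Of 6 genes of the SCF ubiquitin ligase that degrades phosphorylated IκB, 1 rose, against 13.8% of all rows. The median log2 fold change of the list was 0.0002. The gene that rose was Btrc, encoding the substrate receptor β-TrCP of the ligase, at 1.21-fold (edgeR adjusted p = 0.0304). It did not pass without KO 2 (log2 fold change 0.27), KO 3 (0.26) or WT 1 (0.24), with no low-count filter (0.28) or with the DESeq2 Wald test (0.27), and its adjusted p spanned 0.0111 to 0.119 over 15 alternatives. Of 15 other IκB-like proteins and negative regulators 4 rose and 0 fell, against 13.8% and 12.0% of all rows. Their median log2 fold change was -0.002. N4bp1, an inhibitor of NF-κB signalling, rose 1.27-fold, Bcl3, a nuclear IκB family member that binds p50 and p52, 1.27-fold, and Tnip3, a partner of A20, 1.21-fold (edgeR adjusted p = 0.00114, 0.00303 and 0.00382). The A20 partner gene Tnip1 and the deubiquitinase gene Cyld did not pass (log2 fold change -0.002 and 0.07, edgeR adjusted p = 0.985 and 0.451). Without KO 1, WT 3, or WT 2 and KO 1, 1 gene of that list was called lower.

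Of 28 NF-κB target genes, 12 rose and 2 fell, with a median log2 fold change of 0.24. Il1b, encoding interleukin-1β, had 38.6 ± 8.13 CPM in KO and 11.1 ± 0.215 CPM in WT (3.47-fold, edgeR adjusted p = 5.82e-07). Il6 had 10.9 ± 1.53 CPM in KO and 4.72 ± 0.512 CPM in WT (2.31-fold, edgeR adjusted p = 5.92e-05). Plau, encoding urokinase, went the other way, with 49.1 ± 9.47 CPM in KO and 105 ± 3.03 CPM in WT (2.13-fold lower, edgeR adjusted p = 4.75e-06). The other gene that fell was the chemokine gene Ccl3 (1.26-fold lower, log2 fold change -0.33, edgeR adjusted p = 0.0154). Without KO 1, or without WT 2 and KO 1, 4 of the list fell. With the GC and length offsets, without KO 3 or without WT 1, 1 fell.

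Several classical targets did not pass. Il12b, encoding the p40 chain of interleukin-12, had 169 ± 16.0 CPM in KO and 173 ± 13.1 CPM in WT (log2 fold change -0.03, edgeR adjusted p = 0.797). Tnf had 31.8 ± 1.55 CPM in KO and 31.9 ± 1.51 CPM in WT, Icam1 178 ± 2.68 and 172 ± 7.68 CPM, and Sod2 116 ± 7.82 and 116 ± 2.21 CPM (edgeR adjusted p = 0.975, 0.578 and 0.993). Birc3, both a target and a regulator of NIK, had 137 ± 10.3 CPM in KO and 151 ± 3.13 CPM in WT (edgeR adjusted p = 0.140). These genes, named after their values were seen, had log2 fold changes of -0.14 to 0.05. The targets that did not pass ranged more widely, from -0.21 for Ier3 to 0.41 for Cxcl1. Traf1, Cd83, Ccl5 and Irf1 rose 1.29, 1.31, 1.31 and 1.31-fold (edgeR adjusted p = 0.00514, 0.00601, 0.0066 and 0.000714).

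Other genes moved with the same contrast. All 12 interferon-stimulated genes of a list chosen with earlier results of these data known rose, by 1.82 to 23.4-fold. Of all tested rows 13.8% were called higher. Among the 12 were Oasl2 (8.72-fold), Irf7 (19.4-fold) and Isg15 (8.64-fold, edgeR adjusted p = 7.67e-11, 3.63e-10 and 8.16e-10). KO 2, the lowest KO library for most members, was the highest for each of these 3. Of 9 macrophage markers 5 were called higher and 0 lower, with summed levels of 4186 to 4598 CPM in KO and 3736 to 3953 CPM in WT. Fcgr1, itself interferon-inducible, was among them, with 157 to 177 CPM in KO and 20.1 to 22.5 CPM in WT. So was Cd14, with 649 to 725 CPM in KO and 313 to 355 CPM in WT. The markers Adgre1, Csf1r, Cd68 and Mertk did not pass, with log2 fold changes of 0.12, 0.04, -0.13 and -0.14. Markers of mast cells and basophils summed to 9.06 to 11.9 CPM in KO and 4.57 to 6.56 CPM in WT, with 3 of 4 tested genes higher and Fcer1a at or near 0. Markers of plasmacytoid dendritic cells summed to 28.7 to 35.0 CPM in KO and 22.1 to 23.4 CPM in WT, nearly all of it Tcf4, with Siglech near 0. Neutrophil markers overlapped, at 28.9 to 46.0 CPM in KO and 26.2 to 39.4 CPM in WT. Of 8 tested dendritic cell markers 3 were called higher (Ccr7, Zbtb46 and Flt3, log2 fold changes 0.55, 0.50 and 0.23) and 2 lower (Cd74 and H2-Ab1, -0.30 and -0.49), with summed levels of 5292 to 5963 CPM in KO and 5808 to 5988 CPM in WT. The part of these differences in the changes of the NF-κB genes was not tested.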

How the data were processed

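The authors deposited raw read counts per gene symbol, 1 column per library, as the file's whole numbers show. The submitters' processing notes name HTSeq, SAMtools, DESeq2, TopHat2, HISAT and HISAT2, without versions or roles, and the build mm10. No source used here gives the annotation or the strand setting. Of repeated symbols, the row with most reads kept the name (24 rows renamed). Rows were filtered with filterByExpr (minimum count 10), given TMM factors and compared by genotype in a quasi-likelihood model (edgeR 4.0.16 in R 4.3.3), with p-values from glmQLFTest adjusted by Benjamini-Hochberg over 13249 rows. The tested rows held at least 99.751% of each library's counts. SE is the log2 fold change divided by the square root of F. DESeq2 1.42.0 and limma 3.58.1 were alternatives. Lengths and coordinates come from GENCODE M21, matched for 98.5% of tested rows. The named genes are the 10 members, Epas1 and up to 3 called genes with the lowest p per list. Members and lists were chosen with earlier results of these data known. The procedure was tested on simulated data, whose settings and outcome are not reported here.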

Additional observations from a re-analysis of the deposited data

How the results depend on the processing

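Of the 10 members, 5 to 7 were called higher over all alternatives and 0 lower. The calls of Rel, Rela, Nfkb2, Nfkbib and Nfkbie held under all 15 alternatives. Leaving out each library in turn gave 5 to 7 members higher and 0 lower, 1182 to 1992 of all rows higher and 945 to 1622 lower, with the lowest of both without KO 3. Pathway list genes were then higher in 18 to 27 cases and lower in 2 to 6, and without WT 2 and KO 1 lower in 6. The Relb to Rela log2 ratio difference ran from -0.15 to 0.000692, reversed without KO 3. Neither Nfkbia nor Tnfaip3 passed the test in any alternative, and their signs turned. The log2 fold change of Nfkbia ran from -0.0238 to 0.138 with single libraries left out, below 0 without KO 1, and was -0.0491 without WT 2 and KO 1. That of Tnfaip3 ran from -0.0322 to 0.0355, below 0 without KO 1 or WT 2, and was -0.0450 without WT 2 and KO 1 and -0.00232 with the GC and length offsets. The cause was not tested. Whether equal library numbers pair the samples is not stated. Same-numbered libraries had correlations of deviations of 0.0146, -0.11 and 0.0799. Differently numbered ones ran from -0.21 to 0.184, so these correlations cannot decide it. With the replicate number as a block, 7 members were higher, and 1741 rows higher and 1506 lower. Scaling to library size only made 62.3% of calls higher, against 53.5%. The order of levels kept 9 of 9 neighbours with library size scaling and 7 of 9 with coding length. Depth limits Nfkbiz most, at 148 to 228 reads per library.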
